A study of Mus musculus with 24 samples.

Results

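Among the 55681 probes of a mouse Agilent array, 76 were lower in HC11 mammary epithelial cells whose mPINC RNA was knocked down, lower again in HC11 cells that overexpressed mPINC, and little changed by lactogenic hormones in control cells. The members were chosen on measured values, the log2 values of the deposited series matrix. A probe was taken when its mean was at least 0.7 lower with siPINC1.0/1.6 than with siNEG in cells without hormones, at least 0.7 lower with LeGO-1.0/1.6 than with LeGO-GFP, and between -0.5 and 0.5 for siNEG with against without hormones, and when its spots were well above background on every siNEG -LH and LeGO-GFP array. Of the 55681 probes, 24240 were bright in both control groups and 15567 of these met the hormone window. Within these 15567, 154 passed the fall with knockdown, 1377 the fall with overexpression, and 76 both. The mirror image, a rise of at least 0.7 in both, was met by 47 probes. With no limit on the hormone change, 347 bright probes fell in both.

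HC11 is a mouse line derived from COMMA-D cells of a mid-pregnant Balb/c animal, and every sample here is this line. The study profiled 24 cultures on 1-colour arrays to ask what knockdown and overexpression of mPINC, a long noncoding RNA of the mammary gland, do to gene expression. The 6 arrays without lactogenic hormones (-LH) were 2 each of siNEG, siPINC1.0/1.6 and siPINC. Here siNEG is a negative control siRNA, and siPINC1.0/1.6 are siRNAs against the splice forms mPINC1.0 and mPINC1.6. The siPINC siRNAs were meant to reach every splice form, those without the conserved regions included. The paper describes both sets as pairs with an siRNA in common, so they are not independent reagents. The 18 arrays with lactogenic hormones (+LH, hydrocortisone, insulin and prolactin) were 3 each of the same siRNA treatments, at 10 nM siRNA throughout, and of cells transduced with LeGO lentiviruses that carry GFP (LeGO-GFP), both splice forms (LeGO-1.0/1.6) or a deletion mutant of mPINC without its conserved regions and terminal exons (LeGO-DCR). The transduced cells were expanded and frozen after transduction with no cloning step described, and no LeGO culture without hormones was analysed here. In the paper's methods insulin is in the growth and priming media too, while EGF is listed for the growth medium only. The medium of the -LH array cultures and the time of hormone treatment are not given in the sources used here. The study's methods call the replicates biological, while no label says whether they came from separate transductions. Fewer cells of a type and less RNA per cell cannot be told apart in such bulk samples.

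Values below are log2 processed signals, quantile normalized over the 24 arrays, so that a difference of 1 is a doubling, and a probe's level cannot be set against that of another probe. Between 24033 and 35842 probes per array were well above background, the highest on LeGO-1.0/1.6 replicate 1. Without that array 77 probes met the rule, 73 of them among the 76. The arrays lay on 3 slides. Slide 1 held every -LH array with siNEG +LH replicate 1 and LeGO-GFP replicate 1, slide 2 the other siRNA arrays with hormones, and slide 3 the other LeGO arrays. Well above background on both siNEG -LH arrays were 7 of 8 general luminal, 6 of 8 luminal progenitor, 4 of 8 mature luminal, 9 of 10 basal, 7 of 10 fibroblast, 4 of 7 immune, 2 of 6 endothelial and 2 of 6 adipocyte markers. The mPINC probe fell from 7.44 ± 0.05 (SD, n = 2) with siNEG to 6.33 ± 0.08 (n = 2) with siPINC1.0/1.6 and 6.28 ± 0.16 (n = 2) with siPINC without hormones. With hormones it read 4.87 ± 0.13 (n = 3) with siNEG, 5.06 ± 0.21 (n = 3) with siPINC1.0/1.6 and 4.37 ± 0.34 (n = 3) with siPINC, near background (above it on 2, 2 and 1 of 3 arrays), and so gave no check of the knockdown there. It read 13.4 in LeGO-1.0/1.6, 6.07 in LeGO-GFP and 6.06 in LeGO-DCR cells, and whether it lies in the part that the DCR construct lacks was not tested.

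As background, mPINC is induced in the mammary gland in pregnancy and is carried by alveolar cells. HC11 cells answer prolactin through the prolactin receptor and STAT5, and hydrocortisone through the glucocorticoid receptor, and then make milk proteins.

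The 76 probes comprised 48 probes of 43 gene symbols, 20 probes for long intergenic noncoding RNA regions of the array design, and 8 probes named only by a transcript or probe identifier. Of the 43 symbols, 41 were protein coding and 2, Crnde and Phxr4, long noncoding. Region probes made up 26.3% of the members, 16.8% of the probes bright in both control groups and 29.1% of all probes. Grouped by what their products are known to do, after their values had been seen, the genes held the GTPase-activating protein Arhgap25 and the guanine nucleotide exchange factors Arhgef16, Ngef and Tiam2. Others act at the membrane, among them the potassium channel Kcna6, the taurine transporter Slc6a6, the sodium pump regulator Fxyd2, the orphan receptor Gprc5c, the planar polarity cadherin Celsr2, and the receptors Il17rb and Tnfrsf13c. Enzymes included Ggt1, which cleaves glutathione outside the cell, the quinone reductase Nqo1, the lipase Lipk, the carbonic anhydrase Car9, the serine protease Hpn, the sulfotransferase Gal3st1 and the kinases Dapk1 and Mylk. Cidea coats lipid droplets, Sytl1 binds Rab27 on secretory vesicles, Mapt is the microtubule protein tau, Dbp a circadian transcription factor, Efs a Cas family adapter, Pik3r3 a regulatory subunit of PI3 kinase, and Snorc, Fbln5 and Vwa1 are proteins of the matrix or the cell surface. The remaining symbols were Alox5ap, the 5-lipoxygenase activating protein, Cables1, Kctd1, Crip1, Nme5, Rnase10, Hsdl2, Ccdc153, Lrrc75b, Lratd1, Fndc10, Tmem44 and Gm20767.

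The promoters of the genes with the deepest falls are shown here because these genes carry the pattern most strongly. A window of 300 bases, from 250 before to 50 after the annotated start, was found in the RefSeq table (GRCm38.p6) for 28 of the 43 genes, 41 windows in all. Shown are the first listed windows of the 4 genes with the deepest weaker fall that have one, 5′ to 3′, with capitals where letters of any of 15 searched motifs occur on either strand.
Ggt1, chr10:75563882-75564181, plus strand: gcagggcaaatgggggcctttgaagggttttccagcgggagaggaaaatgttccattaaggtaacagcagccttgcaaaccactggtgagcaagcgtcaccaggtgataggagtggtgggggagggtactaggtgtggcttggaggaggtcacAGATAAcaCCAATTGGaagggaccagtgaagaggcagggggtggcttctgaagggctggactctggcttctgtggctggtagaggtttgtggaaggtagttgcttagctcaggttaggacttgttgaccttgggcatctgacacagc
Ccdc153, chr9:44240427-44240726, plus strand: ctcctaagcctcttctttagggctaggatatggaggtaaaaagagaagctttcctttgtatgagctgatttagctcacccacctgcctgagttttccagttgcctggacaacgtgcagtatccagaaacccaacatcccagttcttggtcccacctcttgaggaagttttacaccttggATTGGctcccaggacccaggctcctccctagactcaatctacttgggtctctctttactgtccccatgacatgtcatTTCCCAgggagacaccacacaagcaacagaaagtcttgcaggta
Arhgap25, chr6:87496278-87496577, minus strand: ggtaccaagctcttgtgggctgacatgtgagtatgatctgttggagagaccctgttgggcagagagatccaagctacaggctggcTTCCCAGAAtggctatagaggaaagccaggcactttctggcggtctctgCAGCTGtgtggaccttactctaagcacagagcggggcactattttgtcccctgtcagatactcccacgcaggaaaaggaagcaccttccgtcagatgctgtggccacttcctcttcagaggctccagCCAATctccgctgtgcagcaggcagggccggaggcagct
Arhgef16, chr4:154299846-154300145, minus strand: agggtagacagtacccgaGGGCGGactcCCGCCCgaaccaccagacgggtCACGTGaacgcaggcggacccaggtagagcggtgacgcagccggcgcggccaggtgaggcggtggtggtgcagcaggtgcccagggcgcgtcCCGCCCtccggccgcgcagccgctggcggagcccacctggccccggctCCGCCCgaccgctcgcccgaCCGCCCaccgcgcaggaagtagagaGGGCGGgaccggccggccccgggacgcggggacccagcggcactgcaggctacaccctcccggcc

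In these windows the Ggt1 sequence, 1 of 4 of that gene, held the GATA letters AGATAA and overlapping CCAAT letters on both strands. The Ccdc153 window held a CCAAT box and the letters of RBPJ, the DNA-binding partner of Notch. The Arhgap25 window held the E-box letters CAGCTG in 1 place, a CCAAT box past the start, and STAT letters (TTCNNNGAA) that overlap those of RBPJ. The Arhgef16 window held GGGCGG, the Sp1 letters, in 6 places and the E-box CACGTG in 1. Over the 41 windows, GGGCGG occurred in 48.8% against 35.7% of all 32851 windows, CCAAT in 39.0% against 37.4%, the RBPJ letters TGGGAA in 24.4% against 25.6% and TATAAA in 4.88% against 13.6%. The STAT letters occurred in 4.88% against 8.3%, and AGAACA, letters bound by the glucocorticoid receptor, in 9.76% against 19%. The median GC content was 58.3% in the members' windows and 52.7% in all. These are counts of letters and say nothing of a factor's binding. No single motif of the list was held by more than 16 of the 28 genes.

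Snorc and Arhgap25 had the deepest falls with overexpression. The Snorc probe read 11.05 and 11.12 with siNEG and 9.56 and 9.82 with siPINC1.0/1.6 without hormones, and 9.91, 9.47 and 9.64 in LeGO-GFP against 3.28, 4.09 and 4.65 in LeGO-1.0/1.6 cells. Both falls left the groups apart, and the group means differed by 2.63-fold with knockdown and 50.9-fold with overexpression. With overexpression the size depended on the scale, since the series matrix gave Snorc a difference of -4.48 and Arhgap25 one of -4.31, where the processed signal gave -5.67 and -5.72. Arhgap25 read 10.41 and 10.50 with siNEG and 8.98 and 9.09 with siPINC1.0/1.6 in cells without hormones. In hormone-treated cells it read 9.45, 9.65 and 9.78 in LeGO-GFP and 4.33, 3.64 and 3.74 in LeGO-1.0/1.6, where 1 of 3 arrays was well above background. Ggt1 had the deepest fall with knockdown, from 8.25 and 8.47 to 6.26 and 6.33, a 4.19-fold difference, and fell from 7.79, 7.41 and 7.62 to 3.44, 4.25 and 4.11 with overexpression. In each of these sets the treated arrays lay below all of their controls. Ccdc153, a coiled-coil protein, read 8.35 and 8.56 with siNEG, 6.59 and 6.93 with siPINC1.0/1.6, 9.14, 9.01 and 8.94 in LeGO-GFP and 6.73, 6.5 and 6.35 in LeGO-1.0/1.6. Each of these genes showed the same order of groups that chose it, so these values describe the selection and test nothing.

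**Figure D1:**
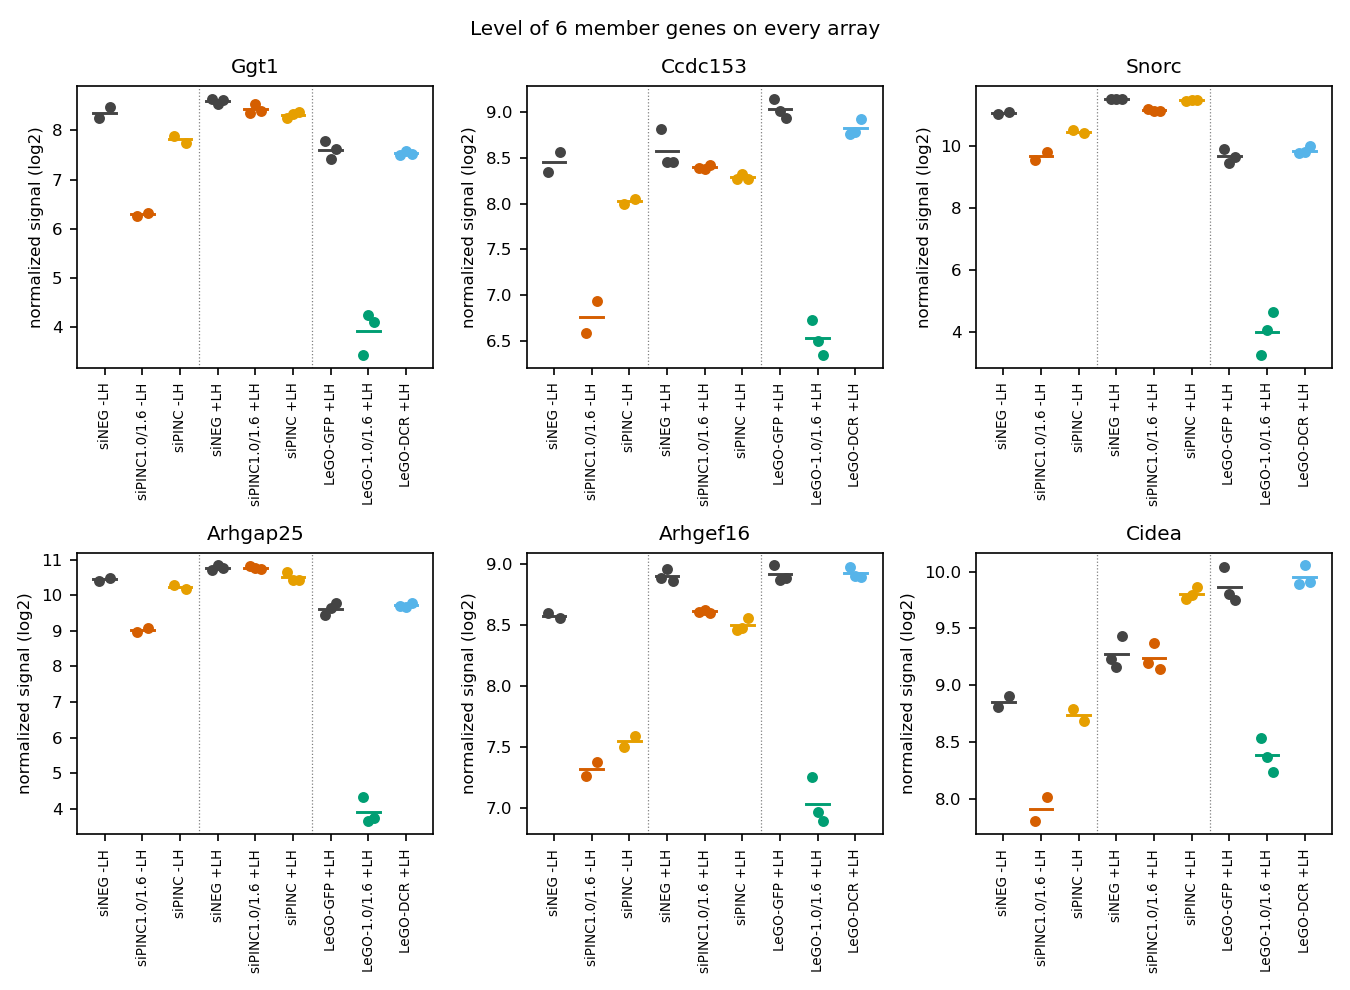
Normalized log2 signal of 6 member genes on every array (points) with the group mean (bars), the groups on the x axis and dotted lines between the -LH siRNA, +LH siRNA and LeGO groups. The siPINC1.0/1.6 -LH points (6.26 and 6.33 for Ggt1) and the LeGO-1.0/1.6 points lie below their controls, while siPINC1.0/1.6 +LH lies near siNEG +LH in Ggt1 and Arhgap25.

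Over the 76 probes the median difference in normalized signal was -1.01 with knockdown, from -2.07 to -0.68, and -1.86 with overexpression, from -5.72 to -0.75. The fall was deeper with overexpression in 69 of 76 probes. Over the 76 probes, which share arrays and in part genes or regions, Spearman's rank correlation between the falls was 0.153 and Pearson's r 0.191. Kcna6 differed by -0.98 with knockdown and -4.74 with overexpression, Lipk by -1.095 and -4.54, and Gprc5c by -0.80 and -3.92. Car9 had the smaller difference with overexpression, -1.54 against -0.92. Where a control was bright and the other group at background on every array, the size of a fall is uncertain. On the processed signal Il17rb was 13.6-fold lower in LeGO-1.0/1.6 than in LeGO-GFP cells. Tnfrsf13c was 3.17-fold lower with siPINC1.0/1.6 than with siNEG on the same signal. These folds are not lower bounds, since the series matrix gave smaller log2 differences of -1.68 for Il17rb and -1.02 for Tnfrsf13c. Over the 76 members the scales differed by more than 1.5-fold for 16 with overexpression and 1 with knockdown.

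**Figure D2:**
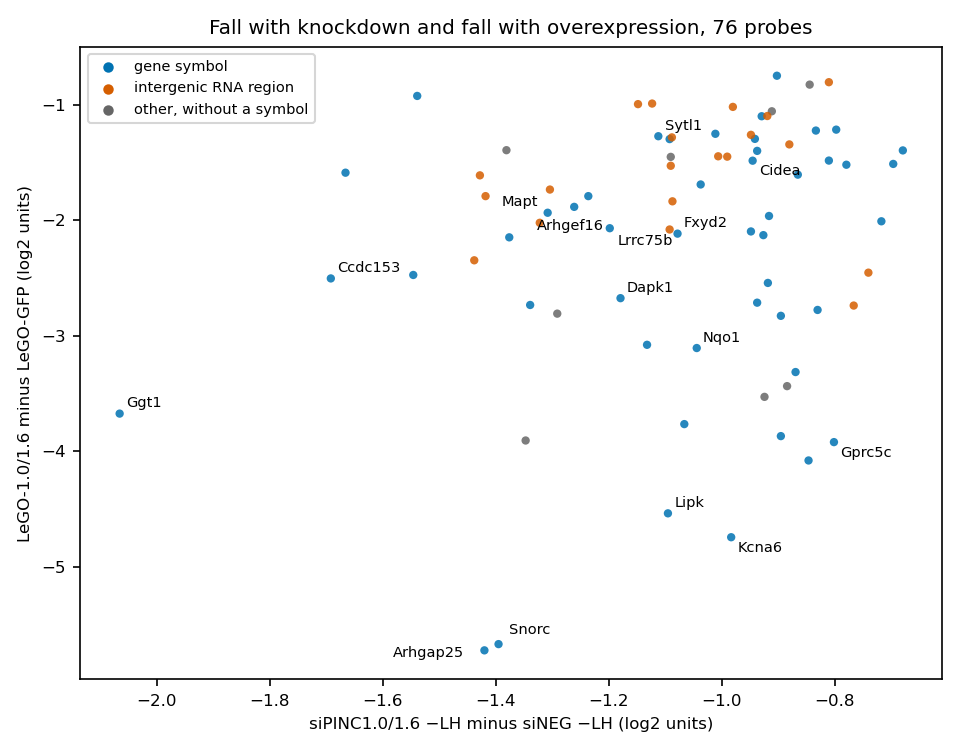
Difference of group means in log2 units for each of the 76 probes, knockdown without hormones on the x axis and overexpression on the y axis, coloured by kind of probe. The points form a broad cloud (Spearman's rank correlation 0.153), with Snorc and Arhgap25 lowest on the y axis and Ggt1 farthest left.

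Near the thresholds, on the series matrix scale, the weakest falls with knockdown inside the rule were -0.709 for Alox5ap, -0.702 for Celsr2 and -0.70 for a region on chromosome 6, and just outside it lay Natd1 at -0.692, Hrct1 at -0.691 and Zfp532 at -0.685. With overexpression Dbp at -0.748 and a region on chromosome 6 at -0.721 lay inside, and a further probe of the short chromosome 17 region at -0.6997 outside. In the hormone window Mapt at -0.481 and probes of that chromosome 17 region at 0.49 and 0.499 lay inside, and Fgf1 at 0.517, Zscan4f at -0.512, Adgrg1 at -0.514 and Vgll4 at -0.526 outside. Several genes were met by more than 1 probe. The 3 probes of Mapt differed by -1.38, -1.31 and -1.55 with knockdown and by -2.15, -1.93 and -2.47 with overexpression. Gprc5c, Dbp and Sytl1 had 2 members each, of which those of Dbp lay farthest apart, at -1.097 and -0.746 with overexpression. A further 12 probes of 10 member genes did not meet the rule, 5 of them bright in the controls, and all 5 of these had lower means in both. On the series matrix scale, though, that of Celsr2 differed by only -0.11 with knockdown. Among the probes that were not bright, 1 of Gprc5c at 0.22 and 1 of Il17rb at 0.29 were higher with knockdown and the others lower.

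The 20 region probes lay in 9 regions of the array design (mm9), which the files do not pair with gene names. The longest, chr17:3198868-3394643, had 5 members among 31 probes, of which 15 were bright, and these went both ways, from -1.35 to 0.18 with knockdown and from -1.79 to 0.07 with overexpression on the series matrix scale. The shorter chr17:12941161-12944859 had 3 members, and all 5 of its probes were bright and had lower means, from -1.02 to -0.84 with knockdown and from -1.51 to -0.70 with overexpression on the series matrix scale. On chromosome 6, chr6:31078802-31079644 had 3 members and its neighbours chr6:31233512-31241062 and chr6:31267612-31293337 had 1 each, as had chr6:83368261-83407280, whose bright probes reached 0.29 with knockdown. The others were chr8:94841965-94881130 with 3, whose bright probes reached 0.32, chr14:73729977-73751877 with 2 and chr9:13349094-13352732 with 1. Probes of 1 region share a transcript or a locus and are not independent. The brightest probe of the long chromosome 17 region read 9.41 and 8.89 with siNEG and 7.64 and 7.79 with siPINC1.0/1.6 without hormones, and 7.33 to 7.71 in LeGO-GFP against 4.72 to 5.76 in LeGO-1.0/1.6 cells. The siNEG -LH arrays themselves differed in these regions. Their median over the 20 region probes was 0.26 above the group mean on replicate 1 and 0.26 below it on replicate 2, against 0.004 for the 48 probes with a symbol. Without siNEG -LH replicate 1 the rule found 78 probes, 55 of them among the 76, and without replicate 2 it found 95, 69 of them among the 76.

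**Figure D3:**
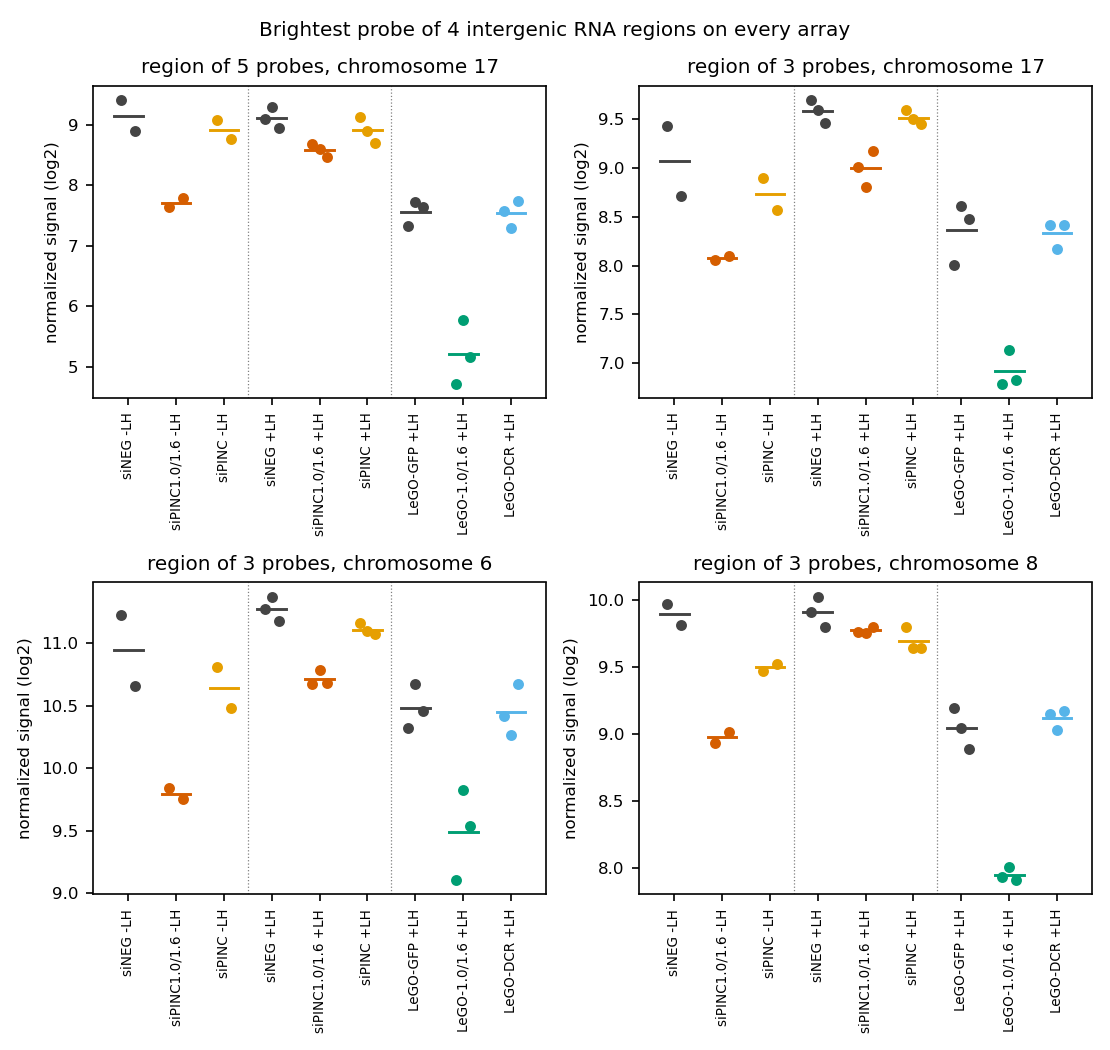
Normalized log2 signal of the brightest member probe of 4 intergenic RNA regions on every array (points), with group means (bars) and the groups on the x axis. In the long chromosome 17 region the siPINC1.0/1.6 +LH points lie below all siNEG +LH points, and the siNEG -LH points lie apart from each other (9.41 and 8.89).

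LeGO-DCR cells, which share their LeGO-GFP controls with the rule and are therefore only described, showed little of the fall. The median member difference from LeGO-GFP was 0.04, from -0.33 for Nme5 to 0.28 for Gm20767, while the same 76 probes had a median of -1.86 in LeGO-1.0/1.6. Every LeGO-DCR array was below every LeGO-GFP array for 4 members, or 5.26% of the 76 beside 5.99% of all probes, and above for 2, or 2.63% beside 4.37%. Among the 24240 probes bright in both control groups, 1885 lay below and 1265 above in this way. Snorc read 9.78, 9.80 and 10.00 in LeGO-DCR, 2 of them within the LeGO-GFP range. Arhgap25 read 9.70, 9.69 and 9.80 and Ggt1 7.50, 7.59 and 7.53. The 3 lowest member genes were Nme5, Tnfrsf13c at -0.32 and Ccdc153 at -0.21, and the 3 highest Snorc at 0.19, Gal3st1 at 0.21 and Gm20767. Tnfrsf13c was well above background on 2 of 3 LeGO-DCR arrays.

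With siPINC and no hormones, against the same siNEG arrays as the rule, the members were lower by less. The median was -0.33, and 69 of 76 means were below 0. Both siPINC arrays were below both siNEG arrays for 50 members, or 65.8% of the 76 beside 19.8% of all probes. This held for 6083 of the 24240 probes bright in both control groups. Fxyd2 differed most at -1.09, from 12.68 and 12.48 to 11.47 and 11.51, a difference close to its -1.08 with siPINC1.0/1.6. Tnfrsf13c followed at -1.05 and Arhgef16 at -1.03, where 8.60 and 8.56 became 7.50 and 7.59. Gprc5c at 0.31, Mylk at 0.22 and Lratd1 at 0.12 had the highest values, although all of them were lower with siPINC1.0/1.6. Mylk read 7.17 and 7.22 with siPINC, 5.80 and 5.89 with siPINC1.0/1.6 and 7.13 and 6.83 with siNEG. Both siRNA groups share these controls and an siRNA, so their values are only set side by side.

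Whether the fall was also present in hormone-treated cells was tested on +LH arrays. The siPINC1.0/1.6 +LH and siPINC +LH arrays took no part in the rule, and siNEG +LH entered it only through the hormone window. Of the 76 members, 18 were lower with siPINC1.0/1.6 than with siNEG at an adjusted p under 0.05 (limma, Benjamini-Hochberg over all 55681 probes), or 23.7% of the members beside 1.75% of all probes, and 5 were higher, or 6.58% beside 2.09%. The rule took only probes bright in both control groups, and of the 24240 such probes 836 were called lower and 1099 higher here. The median member difference was -0.18 (all probes -0.01). Without hormones the same siRNAs gave -1.01, but the members were chosen for a fall in that comparison. These medians are thus no test of a weaker effect with hormones. The mPINC probe was not lower in these siPINC1.0/1.6 cultures. Leaving out any array but siNEG +LH replicate 3 cut the 23 calls to between 3 and 14, and within slide 2, that is without siNEG +LH replicate 1, 4 members were lower and 1 higher.

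Of the 18 lower calls, 10 were region probes, 3 were named by transcript identifiers only, and 5 were genes: Snorc, Lrrc75b, Efs, Arhgef16 and Ngef. Snorc read 11.51, 11.53 and 11.52 with siNEG and 11.21, 11.14 and 11.14 with siPINC1.0/1.6, groups that did not overlap, for a difference of -0.36 ± 0.04 (SE, limma adjusted p = 0.0058). Lrrc75b differed by -0.32 ± 0.07 (adjusted p = 0.0483), Efs by -0.31 ± 0.05 (adjusted p = 0.0254) and Arhgef16 by -0.29 ± 0.05 (adjusted p = 0.0241). The largest fall was that of AK018162, a probe without a symbol, from 7.42, 7.25 and 7.13 to 6.45, 6.42 and 6.51, or -0.81 ± 0.11 (adjusted p = 0.011). Of the 5 members called higher, 0 passed after 75th percentile scaling, with the series matrix, with the methods' t-test or with the replicate block. Gm20767 read 7.65 to 8.0 with siNEG and 8.27, 8.42 and 8.36 with siPINC1.0/1.6, a difference of 0.58 ± 0.105 (adjusted p = 0.0318), although its probe read 7.56 and 7.78 with siNEG and 6.71 and 6.83 with the same siRNAs without hormones. Alox5ap differed by 0.37 ± 0.08 (adjusted p = 0.0468) and Mapt by 0.31 ± 0.06 (adjusted p = 0.0494) at 1 of its 3 probes, while the other probes of Mapt read 0.16 and -0.07 without passing the test. Ggt1, with the deepest fall in cells without hormones, read 8.64, 8.53 and 8.62 with siNEG and 8.35, 8.54 and 8.4 with siPINC1.0/1.6, ranges that overlap.

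The region probes stood lowest in this comparison. All 20 had means below 0, with a median of -0.49, against -0.08 for the 48 probes with a symbol and -0.08 for the 4069 region probes that were bright in both control groups. The 10 calls among 20 compare with 161 lower calls among those 4069, or 3.96%. They came from 4 regions: all 3 members of chr17:12941161-12944859, all 3 of chr6:31078802-31079644, 3 of 5 of chr17:3198868-3394643, and the member of chr6:83368261-83407280, which read 10.95, 10.79 and 10.65 with siNEG and 10.14, 10.17 and 10.20 with siPINC1.0/1.6, or -0.63 ± 0.095 (SE, limma adjusted p = 0.0159). The brightest probe of chr6:31078802-31079644 read 11.28, 11.37 and 11.18 with siNEG and 10.67, 10.78 and 10.68 with siPINC1.0/1.6, or -0.56 ± 0.07 (adjusted p = 0.00579). The members in chr8:94841965-94881130 differed by -0.14 to -0.07 and did not pass the test.

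With siPINC and hormones, 2 members were lower than with siNEG, or 2.63% beside 0.129% of all probes, and 0 higher by limma beside 0.551%. At an unadjusted p under 0.05, 19 were lower, or 25% beside 5.29% of all probes, and 5 higher, or 6.58% beside 4.8%. Among the 24240 probes bright in both control groups, 57 were lower and 275 higher at the adjusted cut. At the unadjusted cut 2199 of these were lower and 2126 higher. AK040883, a transcript without a symbol, fell from 8.05, 8.12 and 7.77 to 7.10, 7.13 and 7.12, or by 0.86 ± 0.09 (SE, adjusted p = 0.0156). Arhgef16 read 8.88, 8.96 and 8.86 with siNEG and 8.46, 8.48 and 8.55 with siPINC, or -0.40 ± 0.05 (adjusted p = 0.025). Without any 1 of the 9 arrays, 0 or 1 members passed.

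The siRNA sets were compared with each other on arrays that had no part in the rule. With hormones, 4 members were lower with siPINC1.0/1.6 than with siPINC, or 5.26% beside 0.472% of all probes, and 1 was higher, or 1.32% beside 0.442%. Among the 24240 probes bright in both control groups, 187 were lower and 233 higher. Cidea read 9.19, 9.37 and 9.14 with siPINC1.0/1.6 and 9.76, 9.79 and 9.87 with siPINC, a difference of -0.57 ± 0.09 (limma adjusted p = 0.0492). With siNEG it read 9.23, 9.16 and 9.44. From siNEG, siPINC1.0/1.6 differed by -0.04 and siPINC by 0.53 with hormones, neither called, and by -0.945 and -0.117 without them. The paper names Cidea among lactation-induced genes raised by mPINC knockdown and lowered by overexpression. Its list rested on a p-value, with no adjustment described, and a fold change in either knockdown group, unlike the adjusted p used here. With siPINC and hormones Cidea was 1.45-fold higher than with siNEG (limma unadjusted p = 0.000681, adjusted p = 0.0728). Between the siRNA sets with hormones, Snorc differed by -0.31 ± 0.04 (adjusted p = 0.0271), AK018162 by -0.74 ± 0.11 (adjusted p = 0.0389) and a probe of chr17:12941161-12944859 by -0.50 ± 0.07 (adjusted p = 0.0364). AK040883 was higher by 0.83 ± 0.09 (adjusted p = 0.0135), since it read 7.99, 7.94 and 7.91 with siPINC1.0/1.6 and about 7.1 with siPINC. Leaving out 1 array at a time left between 0 and 3 of these calls.

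The siPINC arrays with and without hormones took no part in the rule, and lay on different slides, so that slide and hormones cannot be told apart. Of the 76, 41 were higher in siPINC +LH than in siPINC -LH (limma, adjusted p under 0.05), or 53.9% beside 13.5% of all probes, and 2 were lower, or 2.63% beside 14.6%. The rule took only probes bright in both control groups, and of the 24240 such probes 6423 were higher and 6658 lower. It also kept out probes with a large hormone change in siNEG cells, a limit that these background counts do not carry. Crip1, a LIM domain protein, read 15.34 and 15.21 without and 16.30, 16.39 and 16.31 with hormones, a difference of 1.06 ± 0.07 (adjusted p = 5.25e-07). Cidea went from 8.79 and 8.69 to between 9.76 and 9.87, a difference of 1.07 ± 0.10 (adjusted p = 1.42e-05). Snorc went from 10.52 and 10.42 to between 11.46 and 11.49, a difference of 1.00 ± 0.07 (adjusted p = 1.42e-06). Arhgef16 was higher by 0.95 ± 0.06 (adjusted p = 4.87e-07), Gm20767 by 1.01 ± 0.11 (adjusted p = 4.74e-05) and Car9 by 1.07 ± 0.35 (adjusted p = 0.0415).

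Fndc10 went from 10.21 on both siPINC -LH arrays to between 9.69 and 9.73, a difference of -0.50 ± 0.09 (SE, limma adjusted p = 0.00173), and AK040883 differed by -0.385 ± 0.11 (adjusted p = 0.0247). The median member difference was 0.39, against 0.01 for all probes. In a fit of all arrays with a term for the slide, 25 members were higher and 1 lower.

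The other siRNA groups, which the rule used, are given as values only. With siNEG the median hormone difference was 0.22, from -0.50 to 0.69, since the rule set its window on the series matrix scale. Every siNEG +LH array was above every siNEG -LH array for 32 of the 76, beside 13609 of all 55681 probes. Every one was below for 11, beside 12149. With siPINC1.0/1.6 the median hormone difference was 1.01, with all 76 members higher. On siNEG +LH replicate 1, which shared slide 1 with the -LH arrays, the median member stood 0.28 above the siNEG -LH mean, and on replicates 2 and 3, on slide 2, it stood 0.21 and 0.14 above it. On the siPINC1.0/1.6 -LH arrays it stood 1.05 and 1.01 below, on the siPINC1.0/1.6 +LH arrays between 0.02 below and 0.01 above, and on the siPINC +LH arrays between 0.05 and 0.19 above. At the median, the siPINC1.0/1.6 arrays were thus far below siNEG without hormones, as the rule required, and a little below it with them. Whether hormones changed the effect was not tested.

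**Figure D4:**
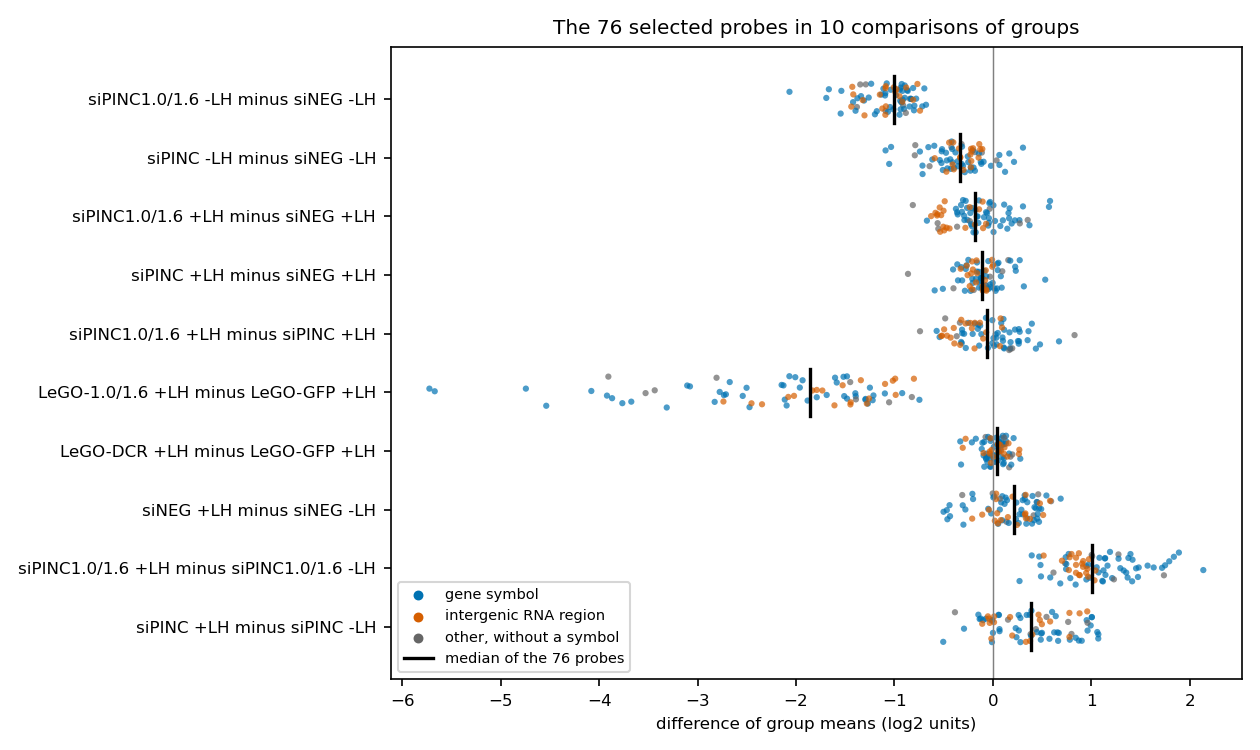
Difference of group means in log2 units (x axis) for the 76 probes in 10 comparisons of groups (y axis), each point a probe coloured by kind and each bar the median. The medians are -1.01 and -1.86 in the comparisons that chose the probes, 0.04 for LeGO-DCR and 1.01 for hormones in siPINC1.0/1.6 cells.

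LeGO-GFP and siNEG +LH arrays, both controls with hormones, had unlike levels of the members. Relative to the siNEG -LH mean, the median region member stood at -1.14 to -0.996 on the LeGO-GFP arrays and at 0.04 to 0.24 on the siNEG +LH arrays, and the median probe with a symbol at -0.12 to -0.05 against 0.25 to 0.27. On slide 1, which held 1 array of each, the region medians were -1.14 and 0.24. Gm20767 went the other way, at 9.83 to 10.14 in LeGO-GFP and 7.65 to 8.0 in siNEG +LH cells, and Lipk read 10.14 to 10.19 against 8.65 to 8.82. Virus, siRNA transfection and culture history cannot be told apart in this contrast, which was not tested.

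**Figure D5:**
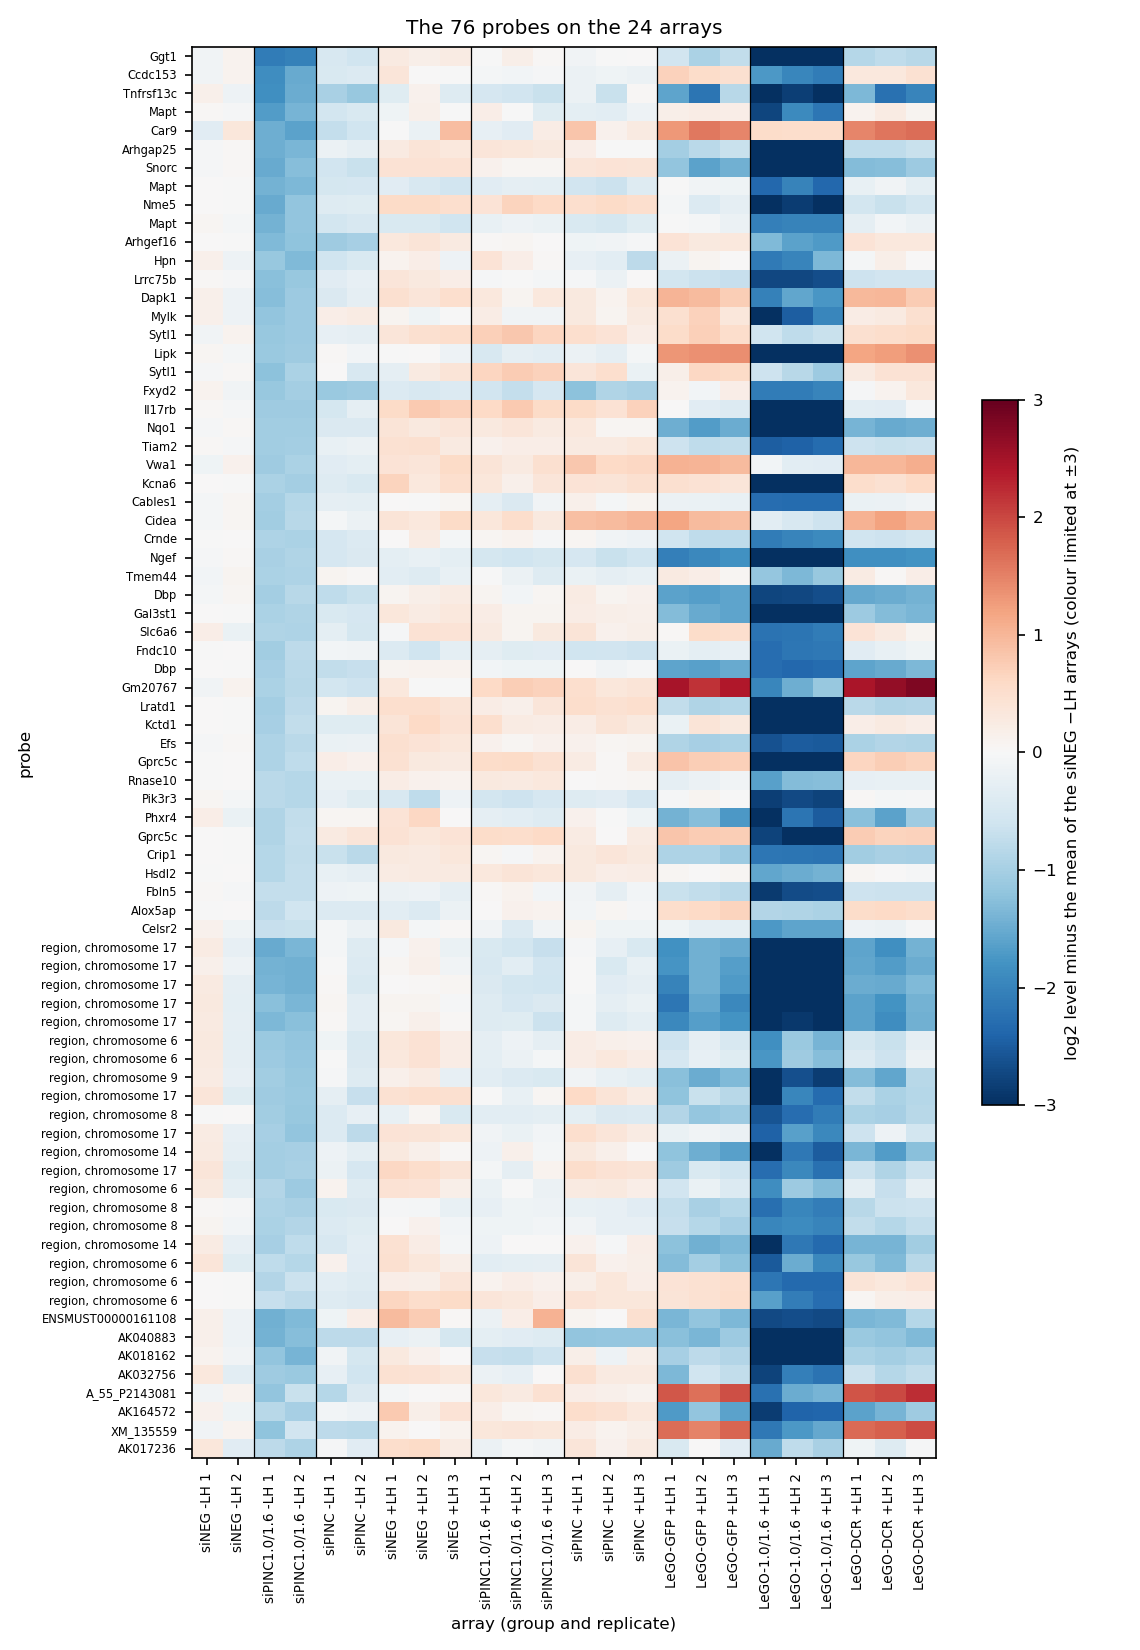
Level of each of the 76 probes (rows) on each of the 24 arrays (columns), as the log2 difference from that probe's siNEG -LH mean, in colours limited at ±3. LeGO-1.0/1.6 columns are the darkest blue in most rows (Car9 is an exception), siPINC1.0/1.6 -LH columns are blue throughout, and the LeGO-DCR columns resemble the LeGO-GFP columns.

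Of 784 measured genes on 26 lists of pathways and functions, 9 were members, or 1.15%, beside 43 of all 20158 measured symbols, or 0.213%. The lists were drawn up with earlier results of these data known, so nothing is read from these shares. No member was on 20 of the lists, among them proliferation (31 genes measured), interferon-stimulated genes (31), Notch (22) and Wnt signalling (40), keratins (22), milk and secretory genes (20) and PRC2 subunits (11). None of the markers of 8 cell types was a member. Fxyd2 and Kcna6 came from 34 genes of ion transport, Mapt and Ngef from 42 neuronal genes, and Ggt1 and Nqo1 from 18 genes of metallothioneins and oxidative stress. Slc6a6 came from 26 solute carriers, Fbln5 from 58 matrix proteins and Mylk from 20 contractile genes. In siPINC1.0/1.6 against siNEG with hormones, 3 of the 34 ion transport genes were lower and 3 higher, 2 of the 42 neuronal genes lower and 3 higher, and 0 of the 18 oxidative stress genes either way. In siPINC cells with against without hormones, where slides differed too and 14.6% of all probes were lower and 13.5% higher, 6 of those 18 genes were lower and 6 higher, 8 of the 34 lower and 10 higher, and 13 of the 42 lower and 11 higher.

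Tnfrsf13c, Il17rb and Alox5ap are known from immune cells and Cidea from fat, and those cells' markers are given beside them. Of the immune markers 4 of 7, and of the adipocyte markers 2 of 6, were well above background on both siNEG -LH arrays. The summed signal of the 7 immune markers lay between 11.75 and 11.77 on the siNEG -LH, 11.45 and 11.51 on the siPINC1.0/1.6 -LH, 11.89 and 12.43 on the LeGO-GFP and 11.63 and 11.90 on the LeGO-1.0/1.6 arrays, on the log2 scale. That of the 6 adipocyte markers lay between 6.99 and 7.23, 7.47 and 7.69, 9.75 and 9.79, and 13.26 and 13.43 on the same arrays, where Cidea fell. Such a sum is carried by the brightest markers and does not describe the set. In LeGO-1.0/1.6 against LeGO-GFP the median marker difference was 0.33 for the adipocyte and -0.41 for the immune markers. Every sample is the HC11 epithelial line, and the relation of these marker signals to the members' values was not tested.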

How the data were processed

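RNA of 24 HC11 cultures was labelled with Cy3 and hybridised to 1-colour Agilent arrays. The authors deposited intensity values of Feature Extraction 11.0.1.1 for each array, with marks for outlier and bright spots, which are background-corrected and not normalized between arrays. A series matrix by the authors holds the same arrays on a log2 scale after their quantile normalization, with earlier steps not given in the sources used here.

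The rule was applied to the series matrix values, with the spots of a probe averaged. All other values are log2 processed signals, quantile normalized over the 24 arrays (59305 spots that are not controls), with outlier spots (146 to 644 per array) then left out and spots averaged to 55681 probes. Groups were compared with limma 3.58.1 in R 4.3.3 (lmFit, eBayes), in a fit of 9 arrays for the comparisons with hormones and of 15 for siPINC with against without, with Benjamini-Hochberg adjustment over all probes. The scripts were tested on simulated data. Symbols came from RefSeq accessions (26582 probes) or the study's tables (25), and 29074 probes had none. A gene is represented by its brightest member probe. Named genes were the 12 with the deepest weaker fall, the extremes among called genes of each test (up to 4 each way), the 3 lowest and highest with siPINC -LH and LeGO-DCR, those at the thresholds and those on a list. Other values named were chosen after they were seen. The members and lists were chosen with earlier results of these data known. Python 3.11.15 with pandas 2.3.3, numpy 2.4.6, scipy 1.17.1 and matplotlib 3.10.9 made summaries and figures. Alternatives were other normalizations, background correction (normexp, offset 50), bright probes only, the methods' t-test, other priors and fits, a replicate block and leaving out arrays. The number of arrays limits the precision. Same-numbered arrays were not paired in the main fits, and whether they were handled together is not known.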

Additional observations from a re-analysis of the deposited data

Results flagged for a closer look

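The effects of the siRNA sets, each against siNEG with hormones, differed for 5 members (limma, adjusted p under 0.05). Since siNEG cancels, this is the same test as the comparison of the siRNA sets above and no second result. The effect of siPINC1.0/1.6 minus that of siPINC was -0.74 for AK018162, -0.57 for Cidea, -0.50 for a probe of chr17:12941161-12944859, -0.31 for Snorc and 0.83 for AK040883, in log2 units.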

How the results depend on the processing

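Counts of called members moved most in siPINC1.0/1.6 against siNEG with hormones. The 23 calls became 7 after 75th percentile scaling, 7 with the series matrix, 14 and 7 in fits of all arrays without and with the slide, 4 with the methods' t-test and Benjamini-Hochberg, and 2 with a replicate block (2 lower, 0 higher), and lay between 19 and 31 in the other whole-set alternatives. The 2 calls of siPINC against siNEG with hormones became 0 (75th percentile, methods' t-test, replicate block), 1 (series matrix), 5 (normexp), 6 (all arrays with slide) and 7 (bright probes, trended robust prior, all arrays). The 5 calls between siRNA sets became 0 with the replicate block, 1 (75th percentile, methods' t-test, series matrix), 10 (normexp), 13 (trended robust prior) and 17 (bright probes). The 43 calls for hormones in siPINC cells became 26 with the slide in a fit of all arrays and 38 with a replicate block, and lay between 29 and 48 otherwise. Leaving out 1 array gave 3 to 17, 0 to 1, 0 to 3 and 30 to 46 calls in these comparisons.

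Falls of at least 1 log2 unit left 23 members, and the number lay between 57 and 112 under other values and between 73 and 95 without 1 array. The median change lay between -0.431 and -0.27 for siPINC without hormones, between -0.006 and 0.063 for LeGO-DCR, where its sign turned to -0.006 without LeGO-DCR replicate 3, and between -0.199 and -0.146 for siPINC1.0/1.6 with hormones, each without 1 array. None of the 73 called results changed its sign in the alternatives run. Over these results and alternatives, 1203 values kept their call and 442 lost it. The causes were not tested.

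No label says whether same-numbered arrays were paired. Their deviations from the group means correlated between -0.432 and 0.209, which cannot settle it with 2 or 3 arrays a group. With 2 arrays a group without hormones, and signals near background in LeGO-1.0/1.6, small differences among members there cannot be ordered.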
